A study of Drosophila melanogaster with 24 samples.

Results

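The regions described are the Isha peaks of mock-treated Kc167 cells that carried none of the 3 insulator proteins mapped beside Isha. They were chosen from measured values: a mock Isha peak on the arms 2L, 2R, 3L, 3R, 4 or X was a member when it shared not a single base with a mock Su(Hw), CP190 or Mod(mdg4) peak. This left 1534 of 4735 mock Isha peaks (32.4%). Of the others, 2855 overlapped CP190 only, 340 overlapped Su(Hw), and 6 overlapped Mod(mdg4) without Su(Hw). Kc167 is a female Drosophila melanogaster cell line of embryonic origin. Isha was depleted by nucleofection of dsRNA directed at it (12 µg, 5 days), and mock-treated cells of the same line served as the control. In each treatment, chromatin immunoprecipitation with sequencing was done for Isha, Su(Hw), CP190 and the Mod(mdg4)67.2 isoform, with inputs, in 2 replicates per group and 24 libraries in all. By the sample titles, Isha had inputs of its own, apart from the other inputs. The rule thus sets the Isha list against lists that may rest on other inputs. A different rabbit antiserum was used for each Isha replicate, and nothing states that replicates were separate cultures. Peak lists hold no expression, so the identity of the cells was not checked. One peak list per antibody and treatment was used, in dm6 coordinates with no score and no replicate column, so no comparison of treatments has a replicate check or a p-value. All intervals are 95% intervals over peaks or genes and cover counting error only, and neighbouring peaks are not independent.

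Insulators are chromatin elements that block an enhancer from acting on a promoter beyond them and that help to divide chromosomes into domains. Su(Hw) binds DNA through zinc fingers and defines the gypsy class of insulators, where CP190 and Mod(mdg4)67.2 join it. CP190 is also brought to many promoters by other DNA-binding proteins. Isha is described by the study as binding the mRNA of su(Hw). The design asked how far Isha shares sites with the insulator proteins and whether these need Isha to associate with chromatin.

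Most of the 1534 regions (60.7%) lay in the interior of genes, which makes up 56.5% of the sequence of the arms. In some cases there were several to a gene, as at ush, pnt and kuz. A smaller set (35.0%) lay within 500 bp of gene ends, where 15.1% of the sequence lies. These had a median width of 1596 bp (1476 to 1777), against 876 bp (852 to 911) in gene interiors. After Isha depletion 1376 of the regions had no Isha peak, and 283 had a CP190 peak, 181 of these near gene ends. The whole Isha list held 932 peaks in knockdown cells, against 4735 in mock cells, which is the only check of the depletion that peak lists give. A peak that is missing from a list may also be a weaker one under the calling threshold.

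The regions without insulator proteins were narrow. Their median width was 1062 bp (interval 1012 to 1109, quartiles 818 and 1742). Isha peaks with CP190 as the only other protein had a median of 1829 bp (1767 to 1875, n = 2855), and those with Su(Hw) 1320 bp (1223 to 1463, n = 340). With all mock Isha peaks parted into 4 equal sets at 979, 1535 and 2364 bp, 706 of the 1534 regions (46.0%) fell in the narrowest set and 187 (12.2%) in the widest, against 375 (13.1%) and 924 (32.4%) of the peaks with CP190 only. A wider peak has more chances to touch a CP190 peak, so the rule itself favours narrow members. A single width was repeated: 106 of the regions (6.91%, 5.75 to 8.29%) were exactly 820 bp wide. So were 19 of the 340 peaks with Su(Hw) (5.59%, 3.61 to 8.56%) and 33 of the 2855 with CP190 only (1.16%). Of the 106 regions, 90 lay inside a gene, 3 still had an Isha peak after knockdown and 6 had a CP190 peak then. The source of this repeated width was not tested.

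Some members lay close to the edge of the rule. The member beside faf, a deubiquitinase gene (3R, 31775597 to 31778161), had a gap of 0 bp to a CP190 peak. Those in kst, a heavy spectrin gene, in CG42245, in CG2310 and in HnRNP-K, an RNA-binding protein gene, had gaps of 3, 7, 9 and 10 bp. Just outside the rule, Isha peaks at RpL38, gus, Unr, RpS15Aa and udt shared 2, 7, 9, 10 and 15 bp with CP190. Most members were far from this edge: the median gap was 3280 bp to the nearest mock CP190 peak (quartiles 1340 and 7166), 15274 bp to Su(Hw) and 47266 bp to Mod(mdg4). A CP190 peak lay less than 500 bp away for 146 members (9.52%).

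Position differed between the regions and the other Isha peaks, in a direction that the rule favours. CP190 is brought to many promoters, and the rule removes every Isha peak that touches CP190. How much of the difference comes from this choice was not tested. The midpoint lay inside a protein-coding gene and over 500 bp from any gene end for 931 regions (60.7%, 58.2 to 63.1%). This held for 789 of the peaks with CP190 only (27.6%, 26.0 to 29.3%), a difference of 33.1 points (Newcombe interval 30.1 to 36.0), and for 42.9% of those with Su(Hw). Such interior sequence makes up 56.5% of the arms. Midpoints within 500 bp of a gene end numbered 537 (35.0%, 32.7 to 37.4%), against 1996 for peaks with CP190 only (69.9%), while 15.1% of the sequence lies there. With a window of 250 bp the share near gene ends was 19.9%. The gene table gives no strand, so start and end of a gene were not told apart, nor exon from intron. Outside genes and away from their ends lay 66 regions (4.30%), against 70 peaks with CP190 only (2.45%) and 28.4% of the sequence. In each of the 4 width sets the share in gene interiors was higher for the regions than for peaks with CP190 only. The difference was 35.0 points in the narrowest set (29.0 to 40.7) and 12.4 points in the widest (5.96 to 19.6). With each gene counted once through its widest member, the interior share was 51.6% (48.7 to 54.5%), an alternative added after the values were seen.

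**Figure D1:**
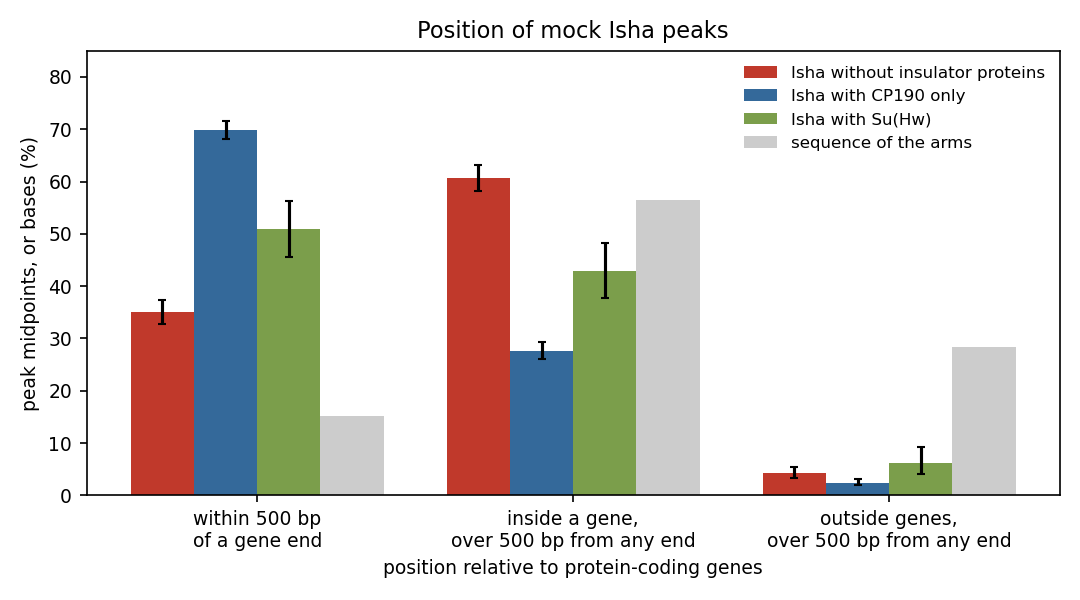
Share of peak midpoints (bars, %, with 95% Wilson intervals) in 3 positions relative to protein-coding genes for Isha peaks without insulator proteins (n = 1534), with CP190 only (n = 2855) and with Su(Hw) (n = 340), beside the share of bases of the arms (grey). The regions without insulator proteins had 60.7% in gene interiors, against 27.6% for peaks with CP190 only.

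The 931 interior regions had their midpoints in 648 genes. Counted by peak, the gene around a member's midpoint had a median length of 8368 bp, against 2774 bp for peaks with CP190 only. A gene with many members enters this median many times. Counted once each, genes with a member within 1000 bp had a median length of 3453 bp. It was 2561 bp for genes with an Isha peak with CP190 and 2163 bp for all protein-coding genes. Of the interior regions, 657 (70.6%, 67.6 to 73.4%) lay in a gene that also had an Isha peak with CP190 within 1000 bp of it. Counted by gene, 424 of the 648 (65.4%, 61.7 to 69.0%) had such a peak, and 5851 of all 13922 protein-coding genes (42.0%) did, those with no Isha peak at all included. The difference lay in the longer genes. Of genes of 10000 to 30000 bp, 155 of 211 with an interior member (73.5%, 67.1 to 79.0%) and 409 of 1102 others (37.1%, 34.3 to 40.0%) had one. Of genes of 2000 to 5000 bp, 62 of 122 (50.8%) and 1952 of 3802 (51.3%) did. The others again include genes with no Isha peak at all, while a gene with an interior member has an Isha peak by definition. Of the 6922 genes with any mock Isha peak within 1000 bp, 5851 had one with CP190. These counts by gene were added after the data were seen. For the 428 members near a gene end whose midpoint was inside a gene, the share was 25.9% (22.0 to 30.3%), a value the rule lowers because it removes CP190 at that end. Over all 1359 members with the midpoint in a gene it was 56.5%, and with 1 member per gene 50.7%. In all, 1946 of 13922 genes (14.0%) had a member within 1000 bp, and at 1053 of these (54.1%) there was no other kind of Isha peak. The share differed with gene length. It was 8.36% of genes under 2000 bp, 16.7% of those of 2000 to 5000 bp, 22.1% of those of 5000 to 10000 bp, 21.5% up to 30000 bp and 19.6% above.

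Some long genes held many such peaks. A gene had 1 member in 1552 cases, 2 in 299, and 3 or more in 95, and the median length of these 95 was 24526 bp. The 5 genes with most members together held 53 of them. ush, a cofactor of GATA factors that acts in blood cells (2L, 476220 to 540560), had 13 members among its 19 Isha peaks, from 411 to 7651 bp wide and 23101 bp in sum. pnt, an ETS transcription factor downstream of Ras (3R, 23290231 to 23346167), had 12 members of 15 Isha peaks, and its other 3 carried Su(Hw). kuz, the protease gene of Notch cleavage (2L, 13550139 to 13639411), had 10 of 14. bun, a growth regulator of the TSC22 family (2L, 12455540 to 12546611), had 9 of 12, and luna, a Krüppel-like factor gene (2R, 10977956 to 11116378), had 9 of 9. All 5 genes also held mock CP190 peaks, 6 at ush, 2 at pnt, 4 at kuz, 5 at bun and 9 at luna, which at luna met no Isha peak. After knockdown 3 of the 13 members at ush, 1 of 12 at pnt, 0 of 10 at kuz, 0 of 9 at bun and 1 of 9 at luna still had an Isha peak. Over all members this held for 158 of 1534 (10.3%), and the counts per gene are too small to set against it.

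The widest of all members lay in ush (2L, 529223 to 536873). After knockdown an Isha peak of 5589 bp remained there (531552 to 537140). Its neighbour (527228 to 529186) ended just before it and also kept Isha. Members joined within 100 bp of each other made 1490 regions, and within 1000 bp 1321, of which 182 held 2 or more members and the longest 5. In sty, an inhibitor of receptor tyrosine kinase signalling, the member spanned 6880 bp (3L, 3410346 to 3417225), lay 71 bp from a CP190 peak, and was left with an Isha peak of 813 bp after knockdown. The members in hang, a zinc finger protein gene (X, 16423647 to 16430233), and at eIF5B, a translation initiation factor gene (3L, 3426103 to 3432003), had neither an Isha nor an insulator peak after knockdown. The widest member on 3R lay in CG31301 (15345123 to 15349044), on 2R at CG10465 (5337897 to 5342745), and on chromosome 4 in ND-49, a subunit gene of respiratory complex I (569501 to 571539).

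**Figure D2:**
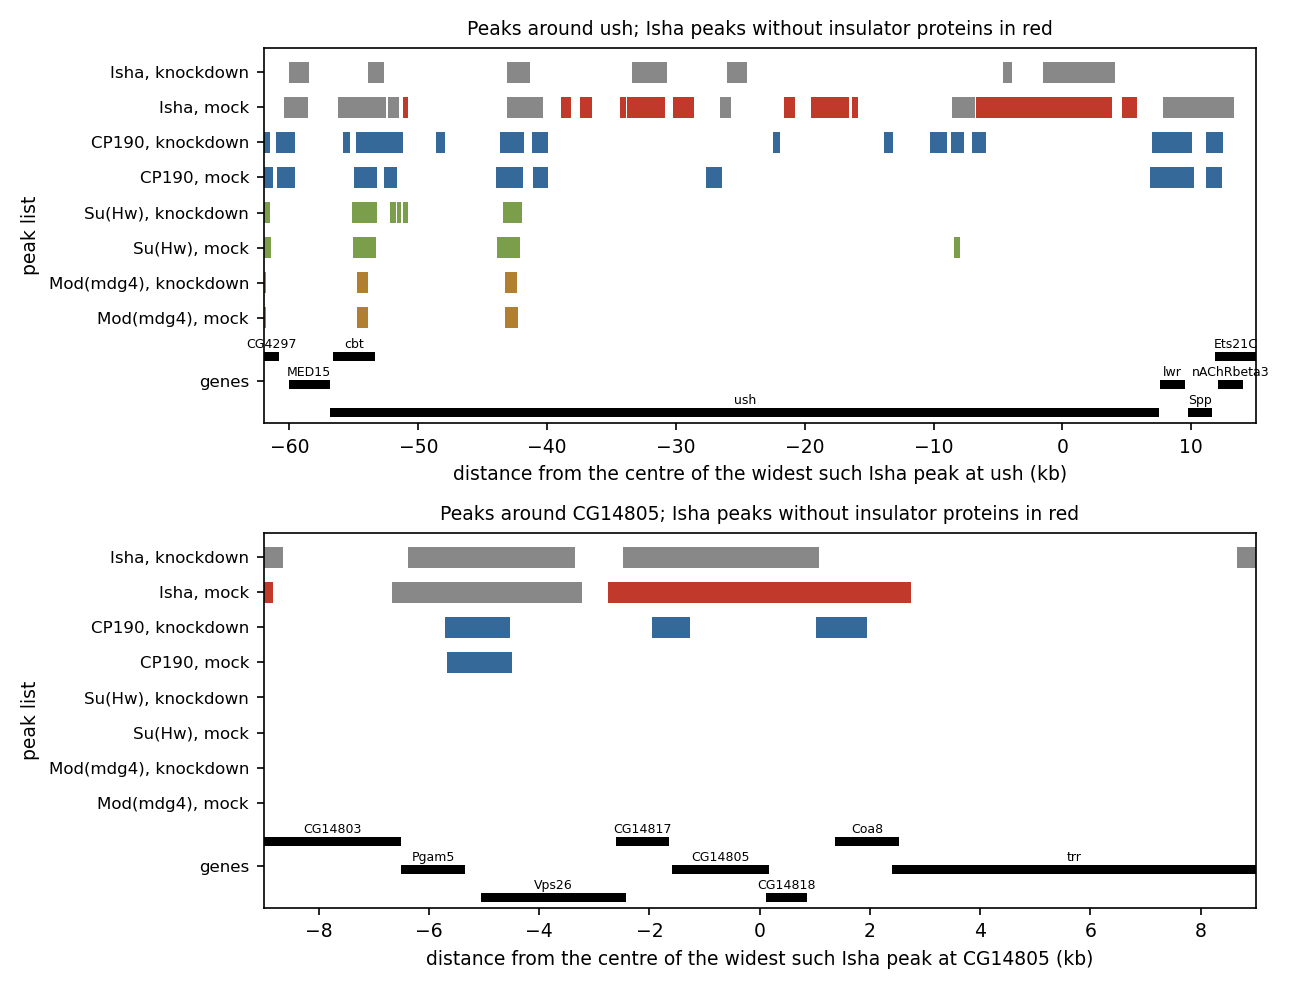
Peaks of the 8 lists (bars, knockdown above mock for each antibody) by distance in kb from the centre of the widest Isha peak without insulator proteins at ush (top) and at CG14805 (bottom), with protein-coding genes in black. Members are red: 13 of them line the interior of ush, while the member at CG14805 spans several short genes and holds 2 CP190 peaks after knockdown and none in mock cells.

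Isha was called again after knockdown at few of the regions. An Isha peak overlapped 158 of 1534 (10.3%, 8.88 to 11.9%), where 18.9% of all mock Isha peaks were kept. Peaks with CP190 only were kept in 656 of 2855 cases (23.0%), a difference of -12.7 points (-14.8 to -10.5), and those with Su(Hw) in 78 of 340 (22.9%). Width moved with this. The kept regions had a median mock width of 2188 bp (1963 to 2321) and the lost ones 976 bp (947 to 1026). Within width sets the difference from peaks with CP190 only was smaller, at -2.27 points in the narrowest set (2.27% against 4.53%, interval -5.01 to -0.0878), -2.47 points (-6.00 to 1.54), -3.97 points (-8.73 to 1.37), and -8.09 points in the widest (34.2% against 42.3%, interval -15.3 to -0.365). The sign was the same in all 4, and the interval included 0 in the middle sets. Where Isha was kept, the peak was narrower in 120 of 158 regions (75.9%), with a median width ratio of knockdown to mock of 0.840 (0.802 to 0.898), and of 0.841 (0.819 to 0.869) for peaks with CP190 only. With 50% reciprocal overlap in place of 1 bp the difference in kept peaks was -4.87 points (-7.31 to -2.56), and with midpoints within 250 bp it was -6.48 points (-8.06 to -4.82), where 5.15% of members were kept.

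**Figure D3:**
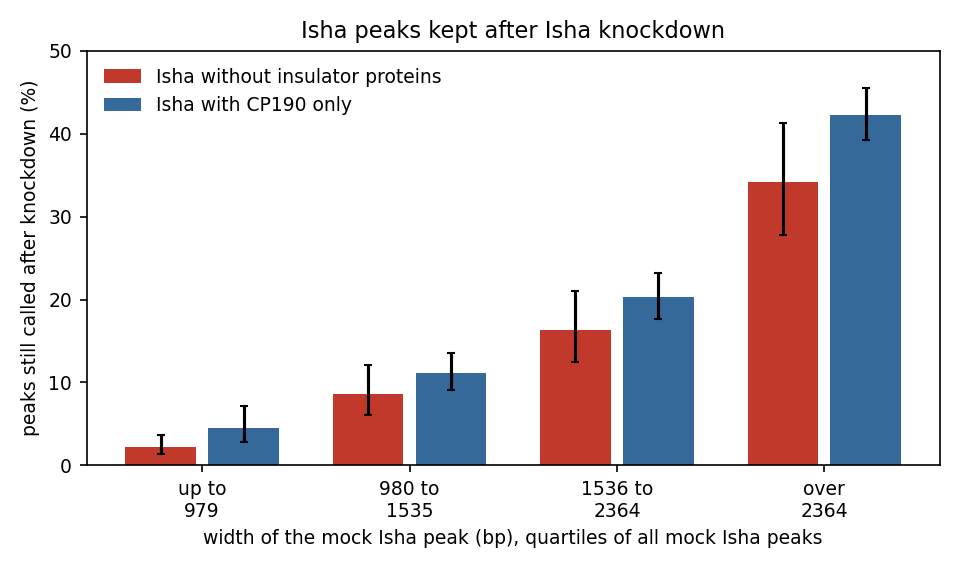
Share of mock Isha peaks still called after Isha knockdown (bars, %, with 95% Wilson intervals) by mock width in bp, for peaks without insulator proteins and for peaks with CP190 only. In the widest set 34.2% of the peaks without insulator proteins and 42.3% of those with CP190 only were kept, and in the narrowest 2.27% and 4.53%.

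Members near gene ends were kept more often than those in gene interiors, with 106 kept among 537 (19.7%) and 51 kept among 931 (5.48%). The difference was 14.3 points (10.7 to 18.1). Within width sets the difference was 0.283 points in the narrowest (-2.12 to 5.24), 10.00 in the second set (3.70 to 17.1), 9.07 in the third (0.489 to 17.5) and 14.4 in the widest (-0.853 to 27.3). The widest kept members after ush and sty lay at CG14805 (X, 1876160 to 1881658) and CG11679 (X, 15735842 to 15741094). They were followed by rngo, a ubiquitin receptor gene (X, 16439689 to 16444279), Usp39, a splicing factor gene (X, 18856075 to 18860587), and PolD2, a DNA polymerase delta subunit gene (3L, 1774226 to 1778458). Next came Sec16, an organiser of endoplasmic reticulum exit sites (X, 12594420 to 12598626), the fatty acid hydroxylase gene Fa2h (2R, 7444900 to 7449096), and kek1, an inhibitor of the EGF receptor (2L, 12818647 to 12822562). The remaining Isha peak was wider than the mock one at kek1, with 4305 bp after knockdown and 3916 bp in mock cells, and at PolD2, with 4571 and 4233 bp. At Fa2h it was 932 bp after knockdown and 4197 bp in mock cells.

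CP190 was called after knockdown at 283 of the regions (18.4%, 16.6 to 20.5%). Over all mock Isha peaks the share was 70.2%, which mostly reflects peaks that had CP190 to begin with, so the members' share is not read against it. By the rule none of the 283 had CP190 in mock cells. At 263 regions (17.1%) the CP190 peak had no counterpart anywhere in the mock list. Seen from CP190, 262 of the 964 peaks called only after knockdown (27.2%, 24.5 to 30.1%) lay at these regions, which cover 2.09 Mb or 1.57% of the arms. That is 125 new CP190 peaks per Mb, against 5.59 per Mb in the sequence with neither a mock CP190 nor a mock Isha peak. The 2 rates are not like for like. The first counts every new peak that touches a member by 1 bp but divides by member bases only, which raises it. The second leaves out new peaks that touch a mock Isha peak. Position was not matched either: 35.0% of member midpoints but 15.1% of all sequence lay within 500 bp of a gene end. The new peaks at the regions were wider than those elsewhere, with medians of 924 bp (892 to 965) and 705 bp (688 to 723), and narrower than CP190 peaks with a mock counterpart (1181 bp). Of the 262, 224 (85.5%, 80.7 to 89.2%) had their own midpoint within 500 bp of a gene end, against 183 of the 702 elsewhere (26.1%, 23.0 to 29.4%). The whole CP190 list held 8880 peaks in knockdown cells, against 8193 in mock cells, but covered 11.0 Mb against 12.7 Mb, with median widths of 1130 and 1410 bp. Without scores, a new peak cannot be told from one that lay just under the calling threshold in mock cells. With 50% reciprocal overlap, for the choice of members and for new peaks, 7.21% of new CP190 peaks lay at members and 7.12% of members had an insulator peak after knockdown. The first of these values was added after the data were seen.

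The members with CP190 after knockdown did not lie nearer to a mock CP190 peak by median than the rest. Their median gap was 3681 bp (3256 to 4176), against 3157 bp (2855 to 3483) for the members without. Their median width was 1651 bp (1540 to 1817), and that of the members without CP190 was 956 bp (917 to 987). CP190 appeared at 181 of the 537 members near a gene end (33.7%, 29.8 to 37.8%) and at 96 of the 931 in gene interiors (10.3%, 8.52 to 12.4%), a difference of 23.4 points (19.0 to 27.9). The difference was 10.6 points among the narrowest members (4.38 to 18.8), then 23.1 points (14.3 to 32.0), 20.5 points (10.0 to 30.3), and 11.8 points among the widest (-3.82 to 25.5). Members that kept Isha had CP190 after knockdown in 60 of 158 cases and those that lost Isha in 223 of 1376 (16.2%), a difference of 21.8 points (14.3 to 29.8). Within width sets this difference was -7.83 points in the narrowest, where 0 of 16 against 54 of 690 had CP190 (-10.1 to 11.6). It was 18.1 points in the second set (2.55 to 36.3), 11.9 in the third (-1.94 to 27.0) and 12.7 in the widest (-1.88 to 27.1).

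**Figure D4:**
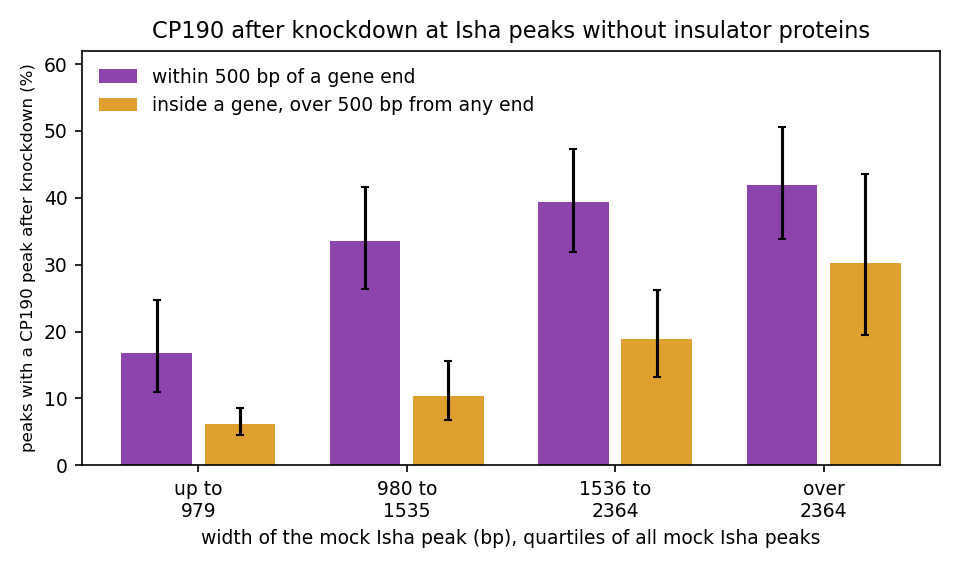
Share of Isha peaks without insulator proteins that overlapped a CP190 peak after Isha knockdown (bars, %, with 95% Wilson intervals), by mock width in bp and by position. The bars for peaks within 500 bp of a gene end stand above those in gene interiors in all 4 width sets, 33.7% against 10.3% over all widths, with intervals that overlap in the widest set.

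The widest members with CP190 after knockdown were at CG32221, CG14805, CG11679, Arpc1 and eIF3i. At CG32221 (3L, 19832244 to 19838051) a CP190 peak of 895 bp was called (19833962 to 19834856). The member at CG14805 held a remaining Isha peak of 3552 bp, with a CP190 peak of 686 bp within it and another of 919 bp across its edge. At CG11679 a CP190 peak of 779 bp lay within the remaining Isha peak of 4125 bp. Arpc1, a subunit gene of the actin-nucleating Arp2/3 complex (2L, 13826505 to 13831464), gained a peak of 1047 bp, and eIF3i, a translation initiation factor gene (2L, 4965333 to 4970266), peaks of 844 and 710 bp. Neither kept an Isha peak.

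After knockdown a Su(Hw) peak overlapped 5 members (0.326%) and a Mod(mdg4) peak none of the 1534 (Wilson upper bound 0.250%). Over all mock Isha peaks the shares were 6.06% (287 of 4735) and 1.94% (92 of 4735). Since 239 of the 287 were peaks that held Su(Hw) in mock cells, which the rule removed, nothing is read from these differences. The 5 members were at CG30423, in Smr, a corepressor gene, in eIF5B, in EcR, the ecdysone receptor gene, and in ush. Those at CG30423, eIF5B, EcR and ush also met a knockdown CP190 peak, and the one in Smr (X, 12734600 to 12735623) met Su(Hw) alone. In eIF5B the Su(Hw) and CP190 peaks were 2343 and 2323 bp wide with nearly the same edges, 3455619 to 3457961 and 3455601 to 3457923, and mock Su(Hw) and CP190 peaks lay 156 and 221 bp from the member. Any insulator peak was found after knockdown at 284 regions (18.5%). The share over all mock Isha peaks was 70.5%, and nothing is read from the difference, since the rule left out the peaks with insulator proteins. The other 1250 regions (81.5%, 79.5 to 83.4%) carried none in either treatment. In all, 1152 regions (75.1%) had neither Isha nor an insulator protein after knockdown, 98 (6.39%) had Isha alone, 223 (14.5%) CP190 without Isha, and 60 (3.91%) both.

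These regions were a larger share of the mock Isha peaks on X than on the arms of chromosomes 2 and 3. They were 375 of 952 on X (39.4%, 36.3 to 42.5%), against 1143 of 3753 (30.5%), a difference of 8.94 points (5.54 to 12.4). Within width sets the difference was 6.45 points in the narrowest (-0.459 to 13.0) and 13.9 in the second (6.75 to 21.4). It was 5.60 in the third (-0.381 to 12.0) and 10.5 in the widest (5.07 to 16.4). On chromosome 4 the regions were 16 of 30 Isha peaks (53.3%, 36.1 to 69.8%). Among the arms of chromosomes 2 and 3 the share ran from 27.1% on 3R to 34.5% on 2R (31.8 to 37.4%). CP190 was called after knockdown at 23.2% of the members on X and 17.1% of those on chromosomes 2 and 3, a difference of 6.14 points (1.54 to 11.1). The arms differed among themselves, with 22.3% on 2L, 16.8% on 2R, 10.9% on 3L and 18.0% on 3R. Within width sets the difference between X and these arms was -2.72 points in the narrowest (-6.47 to 2.45), then 10.8 (0.724 to 22.2), 7.28 (-4.44 to 19.9) and 13.4 points in the widest (-1.38 to 27.9), so the sign was not the same throughout. Isha was kept at 12.8% and 9.62%, with an interval of the difference that included 0 (-0.354 to 7.26).

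Of 21 gene lists, 4 lists of signalling, growth and cytoskeleton genes had the highest shares with members. The lists were chosen with earlier results of these data known, so they are a description. Members were within 1000 bp of 12 of 23 EGFR and Ras pathway genes (52.2%, 33.0 to 70.8%), 7 of 12 JAK-STAT genes (58.3%), 11 of 20 insulin, TOR and growth genes (55.0%) and 12 of 24 actin cytoskeleton and adhesion genes (50.0%). The share over all genes was 14.0%. These lists were also rich in Isha peaks of any kind, which 49.7% of all genes had. In the same order, they lay at 19 of 23, 10 of 12, 19 of 20 and 23 of 24 genes. Isha peaks with CP190 lay at 14, 8, 14 and 19 genes, against 42.0% of all genes. Of genes with any Isha peak, 12 of 19, 7 of 10, 11 of 19 and 12 of 23 had a member. Over all genes this was 1946 of 6922. Whether the high shares are particular to members was not tested. The median gene lengths of these lists were 7620, 7170, 7068 and 7882 bp, and the share among all genes of 5000 to 10000 bp was 22.1%.

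In the EGFR and Ras list the genes with members included the adaptor drk, the exchange factor Sos, and the kinases Raf and rl. In drk 1 of its 2 members kept Isha (2R, 13500242 to 13501310), and the member at Sos (2L, 13813319 to 13815121) had CP190 after knockdown. In the JAK-STAT list they were at the receptor dome, the kinase hop, the cytokine upd3 and the feedback inhibitor Socs36E. Socs36E, 13743 bp long, had 7 members in or beside it, of which 1 kept Isha, the one beside the gene (2L, 18136445 to 18138613). A member beside dome was shared with its neighbour et, which is in the same list and is named after its value was seen, so genes of a list are not independent. The insulin receptor gene InR also held 7, of 443 to 820 bp, all lost, and Akt, foxo and S6k held 1 each, kept only at S6k. Among actin genes were Act5C, chic (profilin), capt and zip (the myosin heavy chain). One of the 2 members at capt (2L, 1149282 to 1151926) kept Isha and had CP190 after knockdown.

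Polycomb and Trithorax group genes had members at 11 of 29 (37.9%, 22.7 to 56.0%), against 14.0% of all genes. By list order the first 4 were the Polycomb group genes ph-p, Sce, E(z) and Jarid2. The rest were the Trithorax group genes trr, mor, osa, ash1, kis, skd and kto, named after their values were seen. Ecdysone response genes had members at 7 of 19 (36.8%), with 5 in EcR, 1 beside br, 2 in Hr4 and 3 in ftz-f1. None of the members of this list had its midpoint near a gene end. Blood cell genes had them at 5 of 17 (29.4%, 13.3 to 53.1%): the GATA factor gene srp, ush, the extracellular matrix genes Pxn and Ppn, and the receptor gene Pvr, which is named after its value was seen. At 4 of these 5 genes at least 1 member kept Isha, and over all genes with a member this held for 359 of 1946 (18.4%). A gene with more members has more chances to hold a kept one. In the order named the 5 genes had 2, 13, 2, 1 and 6 members, while 1552 of the 1946 had 1. The count of 5 genes is also too small to set against the 18.4%. RNA-processing and RNA-binding protein genes had members at 8 of 30 (26.7%), among them tra2, Hrb87F, Sxl and ps, and at 0 of the 8 did a member keep Isha, a count too small to set against the 18.4% over all genes with a member. Insulator and architectural protein genes had them at 5 of 29 (17.2%). There were 6 in shep, an RNA-binding cofactor of insulators, 3 at the zinc finger gene dwg, and 1 each at Trl (GAGA factor) and ZIPIC. M1BP, named after its value was seen, had 2. Isha with CP190 lay at 22 of the 29 (75.9%). For the lists of this paragraph, in the order given, Isha peaks of any kind lay at 25 of 29, 13 of 19, 8 of 17, 26 of 30 and 26 of 29 genes. Over all genes this was 49.7%. The median gene lengths were 8331, 39895, 13948, 5746 and 4472 bp, against 2163 bp for all genes. Whether the shares are particular to members was not tested.

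Genes of the translation and protein turnover machinery had an Isha peak with CP190 more often than a member, as did all genes. Of 92 cytosolic ribosomal protein genes 10 (10.9%, 6.01 to 18.9%) had a member and 83 (90.2%) an Isha peak with CP190. For mitochondrial ribosomal proteins these were 10 and 61 of 73, for proteasome subunits 4 and 31 of 48, and for translation factors 13 and 35 of 51. Over all genes they were 1946 and 5851 of 13922. The 13 translation factor genes were 25.5% (15.5 to 38.9%), against 14.0% of all genes. Of genes with any Isha peak, 83 of 84, 61 of 69, 31 of 34 and 35 of 40 had one with CP190, in the same order. Over all genes this was 5851 of 6922. Members were absent from all 26 Hox and segmentation genes (Wilson upper bound 12.9%), all 24 neuronal and synaptic genes (13.8%) and all 110 cuticle protein genes (3.37%), and lay at 2 of 119 odorant and gustatory receptor genes, Gr2a and Gr59f. Isha peaks of any kind were few at most of these genes, at 2 of the 26 Hox and segmentation genes (7.69%), 5 of the 110 cuticle genes (4.55%) and 10 of the 119 receptor genes (8.40%), against 49.7% of all genes. The neuronal genes are long, with a median of 34626 bp, and 7 of the 24 had an Isha peak with CP190. Toll and Imd genes had members at 3 of 23 (pll, Tab2 and PGRP-LE), Notch and Hippo genes at 6 of 23, with kuz, wts, sav and ex first in the list, heat shock and chaperone genes at 6 of 26, and germline genes at 1 of 14 (tud).

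**Figure D5:**
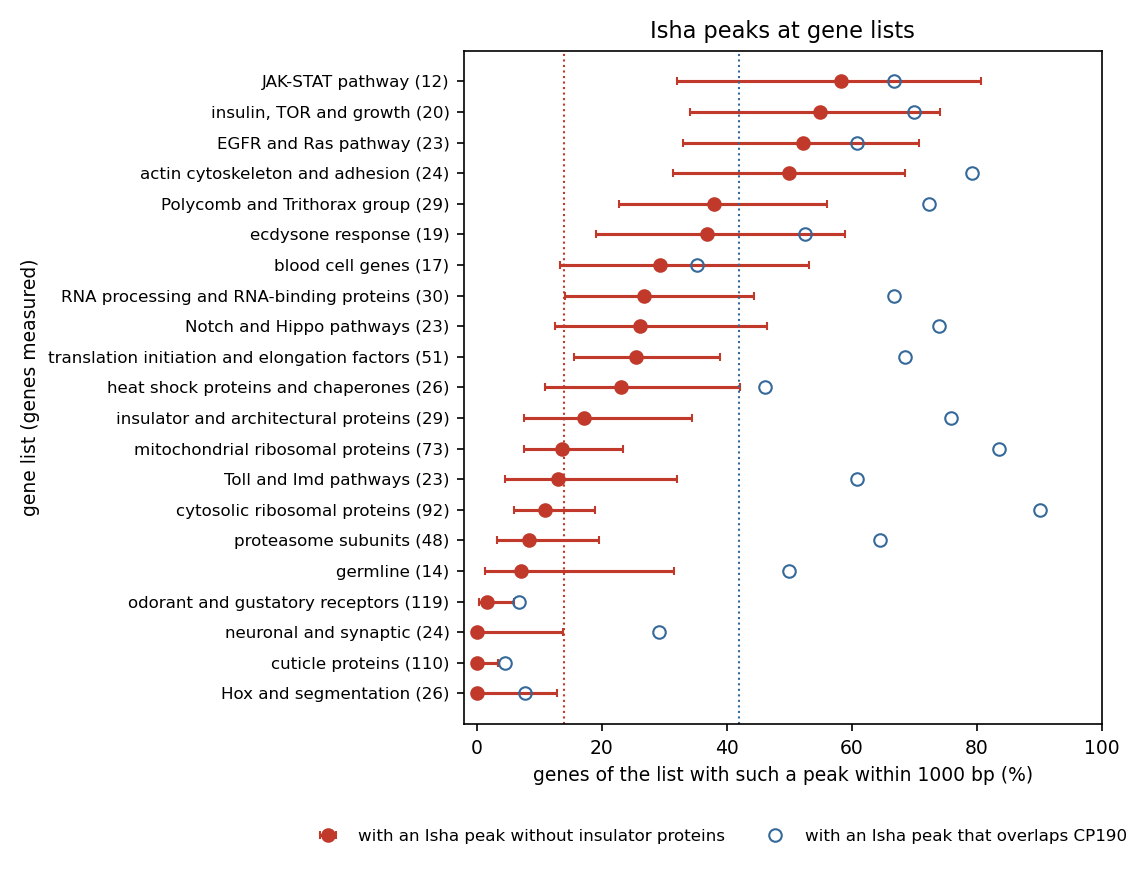
Share of the genes of each list (number of genes in brackets) with an Isha peak without insulator proteins (filled, with 95% Wilson intervals) or with an Isha peak that overlaps CP190 (open) within 1000 bp. Dotted lines give the shares over all protein-coding genes, 14.0% and 42.0%; the JAK-STAT, insulin, EGFR and actin lists stand at 50.0 to 58.3% for the filled points, and the ribosomal protein lists near or below the line.

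Few members overlapped a small RNA gene. A snoRNA gene overlapped 6 members (0.391%), against 47 peaks with CP190 only (1.65%), a tRNA gene 1 against 5, a miRNA gene 4 against 24, and an antisense RNA gene 37 (2.41%) against 135 (4.73%). Long noncoding RNA genes overlapped 53 members (3.46%) and 93 peaks with CP190 only (3.26%).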

How the data were processed

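Per the labels' protocols, chromatin of Isha-depleted or mock-treated Kc167 cells was precipitated with antisera against 4 proteins. Reads were handled with Bowtie2 2.4.1, SAMtools 1.9 and Picard 2.22.2 on build dm6, per the submitters' processing notes. For the peak caller, the threshold and the joining of replicates, the sources used here give nothing. The authors deposited 8 lists with chromosome, start and end only, so depth is unknown. The group of a list came from its name ("SwHw" was read as Su(Hw)). Between 1 and 5 peaks per list off the main arms were left out.

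Overlap means at least 1 bp. Gene positions came from a RefSeq table (Release 6 plus ISO1 MT) that lacks strand, so both gene ends replaced the planned gene starts, and promoter motifs were not analysed here. Shares carry Wilson intervals, differences Newcombe intervals and medians order-statistic intervals, all at 95%. The steps were tested on simulated lists, in Python 3.11.15 with NumPy 2.4.6, pandas 2.3.3, SciPy 1.17.1 and matplotlib 3.10.9. The regions, the gene lists and the naming rule were chosen with earlier results of these data known. The rule took the widest members (of all, per arm, kept, and with each knockdown protein), the 5 genes with most members, 5 peaks on each side of the overlap rule, and the first 4 genes with a member per list. A listed symbol was read under its current name where it had changed (bl, Gap1, nct, Eip55E, h), and 4 symbols without a single match were left out.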

Additional observations from a re-analysis of the deposited data

How the results depend on the processing

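No paired analysis was possible because each list joins both replicates, so no replicate could be left out either. The lists hold no score for a stricter threshold, and width over 1000 bp stood in for it. The planned motif share in promoters was not run. Of 38 planned and 19 added recomputed values, 19 and 10 stayed within the interval of the reported value (counts within 1.5 times). Of these, 11 were differences that could change sign, and 0 did. Planned settings that moved no value they were run on were members at least 500 bp from every mock insulator peak (8 values), all sequences, gene windows of 0 and 500 bp, and members with no insulator peak in either treatment. With 50% reciprocal overlap there were 3371 members at 5147 genes, with a median width of 1397 bp, 48.5% in gene interiors, 47.8% near gene ends, 12.7% kept, 7.12% with an insulator peak after knockdown, and a kept difference from peaks with CP190 only of -4.87 points. Among members over 1000 bp wide, 45.8% were in interiors, 51.6% near ends, 17.4% kept and 27.9% with an insulator peak, and the kept difference was -8.49 points. With midpoints within 250 bp, 5.15% were kept and the difference was -6.48 points. Gene-end windows of 250 and 1000 bp gave 75.0% and 50.3% in interiors, and 19.9% and 46.0% near ends.

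The values that follow come from alternatives chosen after seeing the data. With 1 member per gene, the widest, 51.6% were in interiors, 44.7% near ends, 12.7% kept and 22.4% with an insulator peak after knockdown. The share of members inside genes whose gene also had an Isha peak with CP190, 56.5% as reported over all positions, was 50.7% with 1 member per gene and 53.7% for members at least 500 bp from every insulator peak. Without peaks of 820 bp the median width was 1133 bp. The difference in CP190 after knockdown by position was 18.0 points with the window of 250 bp, and 7.21% of new CP190 peaks lay at members with 50% reciprocal overlap. Apart from what fewer or other members bring by construction, the cause was not tested.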
